A study of Mus musculus with 36 samples.

Results

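The genes described here are 42 genes of DNA replication and S phase, chosen by name from 36856 gene symbols measured in 36 RNA-seq libraries of mouse embryonic fibroblasts (MEF). All 42 were found in the table of counts, and all 42 were among the 16065 genes that passed the filter on low counts. They were chosen for their known function with earlier results of these data in view, in which the level of Dna2 in halofuginone-treated WT cells and that of Ccne2 in BtdCPU-treated WT cells had already been shown. Those 2 values, and the halofuginone interaction of Dna2 that rests on one of them, are given below as descriptions with no p, although both genes are in the fits and in the counts of called genes.

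Cells were of 2 genotypes, wild type (WT) and PERK -/-, called Perk-null below, which lack a stress kinase of the endoplasmic reticulum encoded by Eif2ak3. With 6 treatments of each genotype there were 12 groups of 3 replicate libraries. Cells received DMSO as vehicle, 1 compound (thapsigargin, BtdCPU or halofuginone), or thapsigargin together with either BtdCPU or halofuginone. Thapsigargin blocks the calcium pump of the endoplasmic reticulum, BtdCPU activates the eIF2 alpha kinase HRI, and halofuginone activates the eIF2 alpha kinase GCN2. Dose, duration, strain, embryonic age and the number of separate lines or cultures are not in the labels, so p-values measure the spread between these libraries, which may be technical. With no other line named for either genotype, an effect of PERK and a difference between cell lines cannot be told apart.

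Replication starts in G1, when ORC, CDC6 and CDT1 load the MCM2-7 helicase onto origins. In S phase CDC45 and the GINS complex join MCM2-7 to form the active helicase, primase and the polymerases copy the strands, and PCNA, loaded by RFC, clamps the polymerases to DNA. RPA covers single strands, FEN1, DNA2 and LIG1 finish the Okazaki fragments, and ribonucleotide reductase and thymidylate synthase supply deoxynucleotides. Many of these genes are transcribed at the G1 to S transition by E2F factors, which are released from RB when cyclin D and cyclin E kinases are active. In RNA from a mixed culture, fewer cells in S phase and less RNA per cell cannot be told apart.

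Libraries held 32454257 to 37178107 counts. Levels are given as CPM, the counts scaled to a common library total, on library sizes scaled by TMM, and fold changes as log2 values of the edgeR fit with their standard errors (SE). A gene is called higher or lower below a Benjamini-Hochberg adjusted p of 0.05 in edgeR's quasi-likelihood test, adjusted over all 16065 genes. All 14 fibroblast markers passed the filter, while the T cell marker Cd3e and the markers Plin1 and Lep of adipocytes were at 0 in every library. Of the 14 fibroblast markers, 11 were lower and 0 higher in Perk-null than in WT DMSO cells, with summed levels of 16390 to 19350 CPM against 25450 to 33470 CPM. In thapsigargin-treated WT cells that sum was 16850 to 21380 CPM. The summed level of 6 neural markers, of which 2 passed the filter, was 53.5 to 64.2 CPM in WT DMSO, 203 to 227 CPM with thapsigargin and 10.3 to 24.0 CPM with halofuginone, and in Perk-null cells 48.1 to 55.3 CPM in DMSO and 76.3 to 96.2 CPM with thapsigargin. That of 6 endothelial markers, 5 of which passed, was 0.34 to 0.90 CPM in WT DMSO and 3.93 to 7.43 CPM with halofuginone. The part of these shifts in the results was not tested. Among the WT BtdCPU libraries replicate 2 stood apart from the other replicates for several members. Values without it are given for Cdc6, Cdt1 and Ccne2 and for the counts of called genes, not for every such member.

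The promoters of the genes show how often E2F letters occur among them. RefSeq promoters of the GRCm38.p6 build (250 bases before to 50 after a start site) were found for 34 of the 42 genes, in 39 windows. The E2F letters TTTCCCGC, TTTGGCGC, TTTCGCGC or TTTGCCGC, on either strand, were present in 35.9% of these windows and in 2.26% of all 32851 promoter windows. The 14 genes with a match were Orc1, Cdc6, Cdt1, Mcm3, Mcm5, Mcm6, Mcm7, Gins3, Pola1, Pold1, Pold3, Pole2, Rfc3 and Lig1. The letters CCAAT were present in 56.4% of the windows of these genes against 37.4% of all windows, the GC box GGGCGG in 69.2% against 35.7%, and the TTTGAA letters of the cell cycle element CHR in 12.8% against 17.9%, each on both strands. Below are the 170 bases before the start of 4 genes whose stretch holds E2F letters, set in capitals, and of Pcna, Dna2 and Rpa3, which fell far in WT cells and whose stretch holds none of the E2F letters.
Orc1 (chr4:108579284-108579453, plus strand): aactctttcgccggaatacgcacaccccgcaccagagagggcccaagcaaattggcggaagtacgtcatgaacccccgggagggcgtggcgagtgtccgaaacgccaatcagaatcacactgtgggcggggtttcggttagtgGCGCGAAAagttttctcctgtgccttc
Mcm5 (chr8:75109339-75109508, plus strand): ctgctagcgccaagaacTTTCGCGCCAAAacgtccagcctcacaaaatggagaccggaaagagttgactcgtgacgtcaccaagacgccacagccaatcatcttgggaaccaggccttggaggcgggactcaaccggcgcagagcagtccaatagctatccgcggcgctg
Mcm6 (chr1:128359706-128359875, minus strand): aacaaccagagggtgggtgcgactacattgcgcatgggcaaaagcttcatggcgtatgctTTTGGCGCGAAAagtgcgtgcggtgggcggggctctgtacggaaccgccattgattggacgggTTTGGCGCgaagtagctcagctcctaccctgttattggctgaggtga
Mcm7 (chr5:138171884-138172053, minus strand): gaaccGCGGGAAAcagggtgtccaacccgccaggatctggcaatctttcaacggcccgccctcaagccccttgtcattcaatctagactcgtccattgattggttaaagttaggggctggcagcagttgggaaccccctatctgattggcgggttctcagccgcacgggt
Pcna (chr2:132253181-132253350, minus strand): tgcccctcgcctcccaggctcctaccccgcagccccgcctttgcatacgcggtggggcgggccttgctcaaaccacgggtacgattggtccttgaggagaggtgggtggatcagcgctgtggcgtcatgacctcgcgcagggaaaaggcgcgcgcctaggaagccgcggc
Dna2 (chr10:62946859-62947028, plus strand): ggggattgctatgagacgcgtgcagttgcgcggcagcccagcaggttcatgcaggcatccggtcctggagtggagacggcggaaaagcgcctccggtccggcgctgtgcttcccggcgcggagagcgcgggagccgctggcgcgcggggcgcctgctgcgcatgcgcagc
Rpa3 (chr6:8259142-8259311, minus strand): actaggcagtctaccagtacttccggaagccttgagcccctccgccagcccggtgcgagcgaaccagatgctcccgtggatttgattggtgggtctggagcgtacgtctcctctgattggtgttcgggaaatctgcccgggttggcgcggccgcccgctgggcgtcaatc

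A match of letters is a description of the promoter, not a binding site. The stretches shown are only examples. Pold1 and Pole2, whose E2F letters lie after the start and are not shown, also fell far with halofuginone in WT cells (-1.82 and -1.65). The genes with E2F letters did not have the lower median: in thapsigargin-treated WT cells the median log2 fold change was -0.61 for the 14 genes with a match and -0.73 for the 20 matched promoters without one. With halofuginone in WT cells the medians were -0.30 and -0.70, and with BtdCPU -0.38 and -0.56. No test was made of these medians.

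As a group the replication genes were lower in every treated group than in DMSO cells of the same genotype. The treated Perk-null means lay less far below Perk-null DMSO than the treated WT means lay below WT DMSO. Relative to WT DMSO, the Perk-null group means lay between -0.16 and 0.23. The mean log2 level of the 42 genes, relative to its mean over the WT DMSO libraries, was -0.65 ± 0.13 (SD, n = 3) with thapsigargin, -0.52 ± 0.15 with BtdCPU and -0.61 ± 0.11 with halofuginone in WT cells. With thapsigargin added it was -0.64 ± 0.14 for BtdCPU and -0.54 ± 0.12 for halofuginone. Perk-null cells stood at 0.23 ± 0.04 in DMSO and at 0.15 ± 0.04 with thapsigargin. The Perk-null values were 0.03 ± 0.01 with BtdCPU, -0.08 ± 0.07 with halofuginone, -0.16 ± 0.08 with BtdCPU and thapsigargin and 0.00 ± 0.10 with halofuginone and thapsigargin. The highest treated WT library, at -0.35, lay below the lowest Perk-null library, at -0.25. The genotypes also differed in DMSO, so this gap does not compare their responses. These means describe the chosen genes and carry no test.

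**Figure D1:**
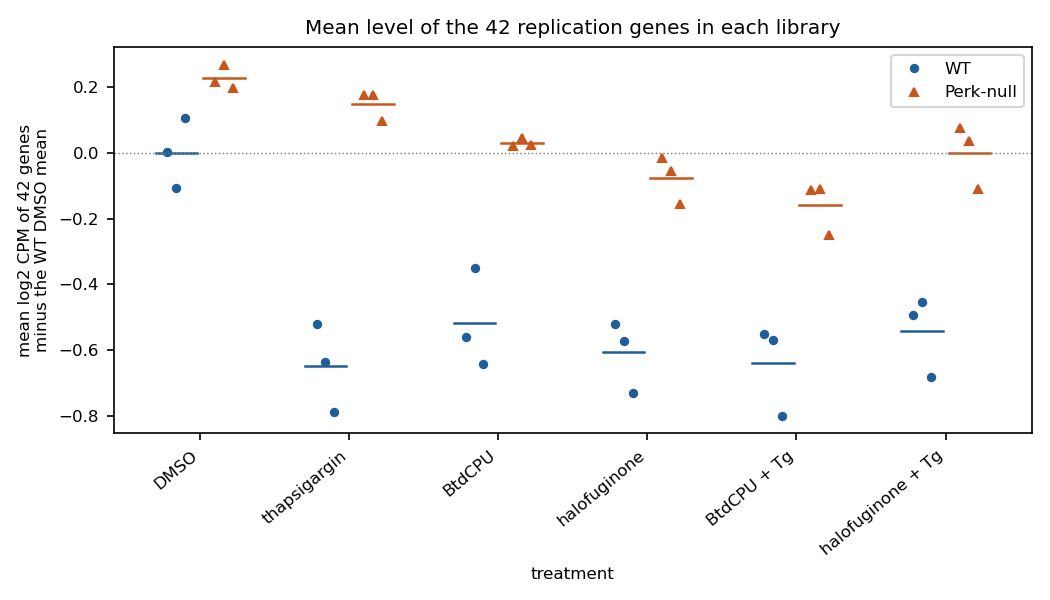
Mean log2 CPM of the 42 replication genes in each library (y axis, relative to the WT DMSO mean) for the 6 treatments (x axis), with WT libraries as circles, Perk-null libraries as triangles and lines at the group means. The treated WT libraries lie between -0.80 and -0.35 and the Perk-null libraries between -0.25 and 0.27.

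Thapsigargin lowered most of the replication genes in WT cells. Of the 42 genes, 31 were lower and 0 higher than in WT DMSO, where 22.7% of all genes tested were lower and 24.9% higher. The falls took in all 6 MCM2-7 subunits, all 3 RPA subunits, all 3 genes of Okazaki fragment processing, all 3 of nucleotide supply and both cyclin E genes. The median log2 fold change was -0.72 over the 42 genes and 0.02 over all genes. Dna2 (log2 fold change -2.88 ± 0.27 (SE), edgeR adjusted p = 2.77e-10) and Ccne1 (log2 fold change -1.50 ± 0.19 (SE), edgeR adjusted p = 9.53e-08) fell furthest. With replicate 3 of WT DMSO left out, 1 gene was called higher. In a fit of the 2 groups alone the falls of Gins4, Rfc1 and Rpa2 were no longer called. That of Rpa2 was also lost without replicate 2 or 3 of WT thapsigargin.

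In Perk-null cells thapsigargin left most of the genes near their DMSO level. There, 6 of the 42 were lower and 2 higher, against 12.7% and 15.2% of all genes, and the median log2 fold change was -0.06 (0.05 over all genes). The 6 that fell were Orc6, Mcm2, Mcm10, Rfc5, Rrm2 and Ccne1. Among called genes Ccne1 (log2 fold change -0.71 ± 0.18 (SE), edgeR adjusted p = 0.00363) and Orc6 (log2 fold change -0.46 ± 0.15 (SE), edgeR adjusted p = 0.0199) fell furthest, while Cdc45 (log2 fold change 0.35 ± 0.10 (SE), edgeR adjusted p = 0.00821) and Gins4 (log2 fold change 0.30 ± 0.11 (SE), edgeR adjusted p = 0.0451) rose. The call on Gins4 was lost when any 1 of the 6 libraries was left out (0.18 to 0.33), with library size or DESeq2 size factors as the scaling and without the filter, and that on Cdc45 without Perk-null DMSO replicate 3 (0.29) or thapsigargin replicate 1 (0.24). Orc6 lost its call without Perk-null DMSO replicate 2 (-0.33) or thapsigargin replicate 1 (-0.45) or 3 (-0.44).

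The response to thapsigargin differed between the genotypes for most of the genes. The interaction, that is, the Perk-null response minus the WT response, was called positive for 28 of the 42 and negative for 0, against 19.5% and 18.6% of all genes, with a median of 0.59 (0.03 over all genes). All 6 MCM2-7 subunits, all 3 RPA subunits, all 3 genes of Okazaki fragment processing and all 3 of nucleotide supply were among the 28. It was largest for Dna2 (2.75 ± 0.36, SE, edgeR adjusted p = 3.02e-07) and Rpa3 (1.53 ± 0.35, edgeR adjusted p = 0.000788). None of the 4 origin licensing genes was called, with interactions from -0.22 for Cdc6 to 0.09 for Orc1.

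**Figure D2:**
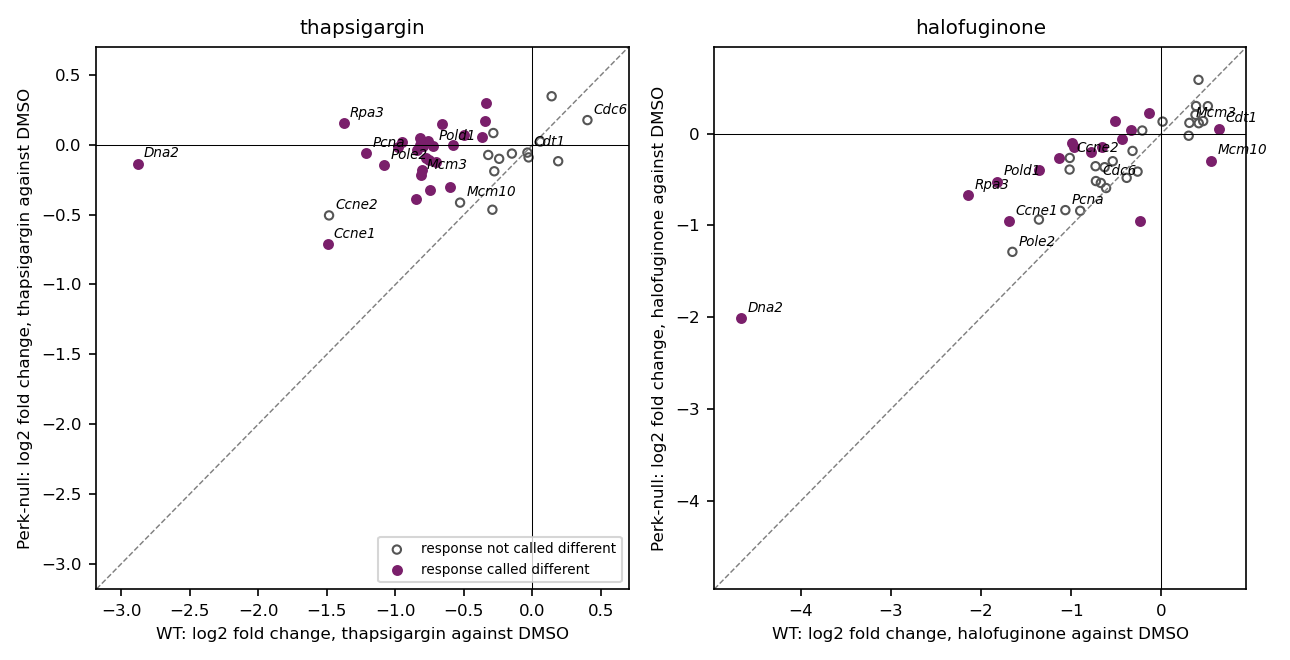
Log2 fold change against DMSO of each of the 42 genes in WT cells (x axis) and Perk-null cells (y axis), with thapsigargin on the left and halofuginone on the right. Filled points are genes whose response was called different between the genotypes, and the dashed line marks equal responses. With thapsigargin 28 genes lie above the line as called, Dna2 at -2.88 in WT and -0.13 in Perk-null cells.

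BtdCPU lowered 27 of the genes in WT cells and raised Cdt1, the licensing factor. The share lower in all genes was 9.31% and the share higher 12.9%, and the medians were -0.44 over the 42 genes and -0.01 over all genes. Cdc6 fell from 60.9, 53.5 and 97.3 CPM in DMSO to 19.6, 33.2 and 24.9 CPM, a clear separation of the groups (log2 fold change -1.44 ± 0.18 (SE), edgeR adjusted p = 6.65e-07). Cdt1 stood at 169.5, 115 and 184 CPM against 95, 91.7 and 109.9 CPM, with replicate 2 the lowest of its group and still above all DMSO libraries (log2 fold change 0.66 ± 0.12 (SE), edgeR adjusted p = 0.000155). Ccne2 was at 5.47, 25.7 and 8.32 CPM against 54.5, 53.7 and 50.8 CPM in DMSO, a value already known when the genes were chosen. Without replicate 2 of WT BtdCPU the counts were again 27 lower and 1 higher, and the log2 fold changes were -1.66 for Cdc6, 0.84 for Cdt1 and -2.94 for Ccne2. Fitted on the 2 groups alone, 13 genes were called lower and 0 higher, where 835 of the 13515 genes tested were called in either direction.

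In Perk-null cells BtdCPU changed few of the genes. There, 3 members, Mcm5, Rpa2 and Rrm2, were called lower and 0 higher, against 1.04% and 2.55% of all genes, with medians of -0.17 and 0.00. Rpa2 (log2 fold change -0.58 ± 0.14 (SE), edgeR adjusted p = 0.0117), a subunit of the single-strand binding complex, and Rrm2 (log2 fold change -0.47 ± 0.13 (SE), edgeR adjusted p = 0.0376) fell furthest of the 3. Ccne2 had a lower value that was not called (log2 fold change -0.75 ± 0.30 (SE), edgeR adjusted p = 0.199), and was called without the filter (-0.74) and in a fit of the 2 groups alone (-0.75). Leaving out any 1 of the 6 libraries left 0 or 1 gene called (Rpa2 at -0.52 without BtdCPU replicate 1 and -0.53 without DMSO replicate 2, Rrm2 at -0.52 to -0.43), while DESeq2 called 7 and a fit of the 2 groups alone 11. Over all genes DESeq2 called 881 and that fit 1265 in either direction. The difference between the genotypes was called for 0 of the 42 genes in edgeR, with a median of 0.21, where 0.0373% of all genes were positive and 0.162% negative. At an unadjusted p below 0.05 it was 12 genes. No share of all genes is given for that threshold, so this count cannot be read as a difference between the genotypes. DESeq2 called 5, where 161 of all genes were called in either direction. Without replicate 2 of WT BtdCPU edgeR called 9 positive and 1 negative, where 845 of all genes were called. Without replicate 2 of WT DMSO it called 1 positive.

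Halofuginone split the genes in WT cells: 29 fell and 10 rose, against 33.4% and 34.7% of all genes. The 10 that rose were Orc6, Cdt1, Mcm3, Mcm4, Mcm10, Cdc45, Pola1, Pold3, Pole and Rfc4. Cdt1 (log2 fold change 0.64 ± 0.12 (SE), edgeR adjusted p = 2.11e-05) and Mcm10, which helps CDC45 and primase join the helicase (log2 fold change 0.55 ± 0.11 (SE), edgeR adjusted p = 4.2e-05), rose furthest. Rpa3 (log2 fold change -2.14 ± 0.27 (SE), edgeR adjusted p = 2.04e-08) had the largest fall among tested values, and Dna2, whose level was already known, stood at 1.55, 0.879 and 0.740 CPM against 28.0, 20.2 and 31.8 CPM in DMSO, 25.2-fold lower. The medians were -0.58 over the 42 genes and 0.00 over all genes. Scaling by library size alone moved the median of all genes to -0.11 and left 4 of the 10 rises called, without a change of sign. The rises no longer called were those of Orc6, Mcm3, Pola1, Pold3, Pole and Rfc4. Those of Mcm3, Pole and Rfc4 were also lost in a fit of the 2 groups alone. Without replicate 1 of WT halofuginone 5 were called higher.

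In Perk-null cells halofuginone lowered 18 of the genes and raised 2, against 21.0% and 21.2% of all genes, with medians of -0.27 and 0.00. Dna2 (log2 fold change -2.005 ± 0.26 (SE), edgeR adjusted p = 1.54e-07) and Pole2, a subunit of the leading-strand polymerase (log2 fold change -1.29 ± 0.16 (SE), edgeR adjusted p = 1.21e-07), fell furthest. Rfc4 (log2 fold change 0.58 ± 0.18 (SE), edgeR adjusted p = 0.00778) and Cdc45 (log2 fold change 0.30 ± 0.10 (SE), edgeR adjusted p = 0.0158) rose, and Cdc45 lost its call without Perk-null DMSO replicate 3 (0.28) or halofuginone replicate 1 (0.26). The genotypes differed for 17 genes, 14 positive and 3 negative (17.5% and 17.5% of all genes), with a median of 0.24. Rpa3 (1.47 ± 0.36, edgeR adjusted p = 0.00178) and Pold1 (1.30 ± 0.21, edgeR adjusted p = 1.4e-05) had the most positive tested values, and the value of Dna2, which rests on its known WT level, was 2.65. Mcm10 (-0.85 ± 0.15, edgeR adjusted p = 7.19e-05) and Gins3 (-0.71 ± 0.27, edgeR adjusted p = 0.0448) had the most negative, the latter lost without any of 11 of the 12 libraries (-0.75 to -0.56). The call on Gins3 was also lost with library size as the scaling (-0.60) and without the filter (-0.63).

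Thapsigargin added to BtdCPU or halofuginone gave similar counts in WT cells. Against WT DMSO, BtdCPU with thapsigargin lowered 29 genes and raised 0 (24.5% and 28.0% of all genes, median -0.57), and halofuginone with thapsigargin lowered 27 and raised 6 (31.4% and 34.3%, median -0.45). Dna2 fell furthest in both (log2 fold change -3.02 ± 0.27 (SE), edgeR adjusted p = 1.17e-10, and log2 fold change -4.08 ± 0.29 (SE), edgeR adjusted p = 2.85e-13). Next came Ccne2 with the BtdCPU pair (log2 fold change -1.80 ± 0.31 (SE), edgeR adjusted p = 1.65e-05) and Rpa3 with the halofuginone pair (log2 fold change -2.49 ± 0.27 (SE), edgeR adjusted p = 1.69e-09). Cdc45 (log2 fold change 0.66 ± 0.10 (SE), edgeR adjusted p = 9.48e-07) and Cdt1 (log2 fold change 0.64 ± 0.12 (SE), edgeR adjusted p = 2.35e-05) rose furthest with the halofuginone pair. Without replicate 3 of WT DMSO, 1 gene was called higher with the BtdCPU pair, and all 5 treatment comparisons of a genotype share its 3 DMSO libraries.

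Against thapsigargin alone, adding BtdCPU to WT cells changed 1 gene, Mcm10 (log2 fold change 0.42 ± 0.11 (SE), edgeR adjusted p = 0.0316), where 1.29% of all genes were higher and 1.02% lower. Replicate numbers pair these libraries, and with the replicate as a block 4 genes were called higher. The call on Mcm10 was lost without replicate 2 (0.37) or 3 (0.38) of BtdCPU with thapsigargin, or replicate 1 (0.47) or 3 (0.33) of thapsigargin. Adding halofuginone raised 17 and lowered 7 (22.8% and 22.5% of all genes). Mcm10 (log2 fold change 0.94 ± 0.11 (SE), edgeR adjusted p = 2.56e-08) and Mcm3, a subunit of the helicase (log2 fold change 0.91 ± 0.10 (SE), edgeR adjusted p = 9.25e-09), rose furthest, and Dna2 (log2 fold change -1.19 ± 0.30 (SE), edgeR adjusted p = 0.00153) and Rpa3 (log2 fold change -1.11 ± 0.27 (SE), edgeR adjusted p = 0.000969) fell furthest.

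In Perk-null cells the pairs lowered more of the genes than thapsigargin alone. BtdCPU with thapsigargin lowered 23 and raised 0 against DMSO (14.6% and 16.8% of all genes, median -0.35), led by Ccne2 (log2 fold change -1.55 ± 0.31 (SE), edgeR adjusted p = 0.000199) and Ccne1 (log2 fold change -1.45 ± 0.19 (SE), edgeR adjusted p = 3.08e-07). Without its replicate 3 the pair lowered 15. Halofuginone with thapsigargin lowered 13 and raised 5 (22.2% and 22.9%, median -0.21). Its largest falls were those of Dna2 (log2 fold change -1.80 ± 0.25 (SE), edgeR adjusted p = 6.72e-07) and Pole2 (log2 fold change -1.47 ± 0.16 (SE), edgeR adjusted p = 1.01e-08), and its largest rises those of Rfc4 (log2 fold change 0.62 ± 0.18 (SE), edgeR adjusted p = 0.00427) and Cdc6 (log2 fold change 0.51 ± 0.18 (SE), edgeR adjusted p = 0.0182). The number higher was 2 without DMSO replicate 3 and 3 without DMSO replicate 2 or replicate 1 or 2 of the pair. Cdc6 lost its call without DMSO replicate 2 (0.45) or 3 (0.49) or replicate 1 of the pair (0.46).

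Compared directly with thapsigargin in Perk-null cells, BtdCPU with thapsigargin lowered 19 of the genes and raised 1, Mcm2 (log2 fold change 0.23 ± 0.07 (SE), edgeR adjusted p = 0.0155), against 18.3% and 17.3% of all genes. Ccne2 (log2 fold change -1.05 ± 0.31 (SE), edgeR adjusted p = 0.00745) and Rrm2 (log2 fold change -0.89 ± 0.13 (SE), edgeR adjusted p = 3.66e-06) fell furthest. The number lower was 8 without replicate 3 of the pair and 10 without replicate 2 of thapsigargin, where Ccne2 stood at -0.92 and -0.83 and was no longer called, and Mcm2 lost its call without thapsigargin replicate 1 (0.21). Halofuginone with thapsigargin lowered 13 and raised 7 (27.5% and 25.2%). Dna2 (log2 fold change -1.67 ± 0.25 (SE), edgeR adjusted p = 1.45e-06) and Pole2 (log2 fold change -1.32 ± 0.16 (SE), edgeR adjusted p = 4.04e-08) fell furthest, and Orc6, a subunit of the origin recognition complex (log2 fold change 0.83 ± 0.15 (SE), edgeR adjusted p = 2.68e-05), and Rfc4 (log2 fold change 0.60 ± 0.18 (SE), edgeR adjusted p = 0.00473) rose furthest. Without replicate 3 of the halofuginone pair 7 genes were called lower, and the fit of the 2 groups alone called 11 higher.

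The genotypes also differed in what BtdCPU or halofuginone added to thapsigargin. For BtdCPU the interaction was negative for 11 of the 42 genes and positive for 0 (10.1% and 10.7% of all genes, median -0.35). Among called genes it was lowest for Pola2, the B subunit of polymerase alpha (-0.70 ± 0.12, edgeR adjusted p = 9.12e-05), and Mcm5 (-0.63 ± 0.12, edgeR adjusted p = 0.000376). This count fell to between 3 and 7 when replicate 1 or 3 of Perk-null BtdCPU with thapsigargin, replicate 2 or 3 of Perk-null thapsigargin, replicate 1 of WT BtdCPU with thapsigargin or replicate 2 of WT thapsigargin was left out, and 3 was the value without replicate 3 of the Perk-null pair. For halofuginone it was negative for 16 and positive for 1 (16.9% and 15.9%, median -0.25). Gins3, a GINS subunit (-1.01 ± 0.27, edgeR adjusted p = 0.0045), and Mcm10 (-0.88 ± 0.15, edgeR adjusted p = 3.68e-05) were lowest. The positive call, Pold2 of polymerase delta (0.67 ± 0.21, edgeR adjusted p = 0.014), was lost without replicate 3 of WT halofuginone with thapsigargin (0.51).

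Without treatment, Perk-null cells held more RNA of many replication genes than WT cells. In DMSO 18 of the 42 were higher and 3 lower in Perk-null cells, against 24.6% and 24.9% of all genes, with medians of 0.23 and 0.02. Rpa3 (log2 fold change 0.89 ± 0.25 (SE), edgeR adjusted p = 0.00337) and Cdt1 (log2 fold change 0.74 ± 0.12 (SE), edgeR adjusted p = 4.68e-06) had the largest rises. The 3 lower genes were Pole2 (log2 fold change -0.50 ± 0.16 (SE), edgeR adjusted p = 0.00867), Mcm6 (log2 fold change -0.46 ± 0.10 (SE), edgeR adjusted p = 0.000443) and Rfc2 (-0.25). Leaving out replicate 2 of WT DMSO gave 11 higher genes, and Pole2 lost its call without Perk-null DMSO replicate 3 (-0.38). Eif2ak3 itself stood at 9.95 ± 0.760 CPM in Perk-null and 31.1 ± 1.10 CPM in WT DMSO libraries (SD, n = 3). With thapsigargin it was at 27.4 ± 3.31 CPM in Perk-null and 87.2 ± 14.9 CPM in WT cells, so its RNA was present in Perk-null cells, and the labels do not say which part of the gene is deleted.

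**Figure D3:**
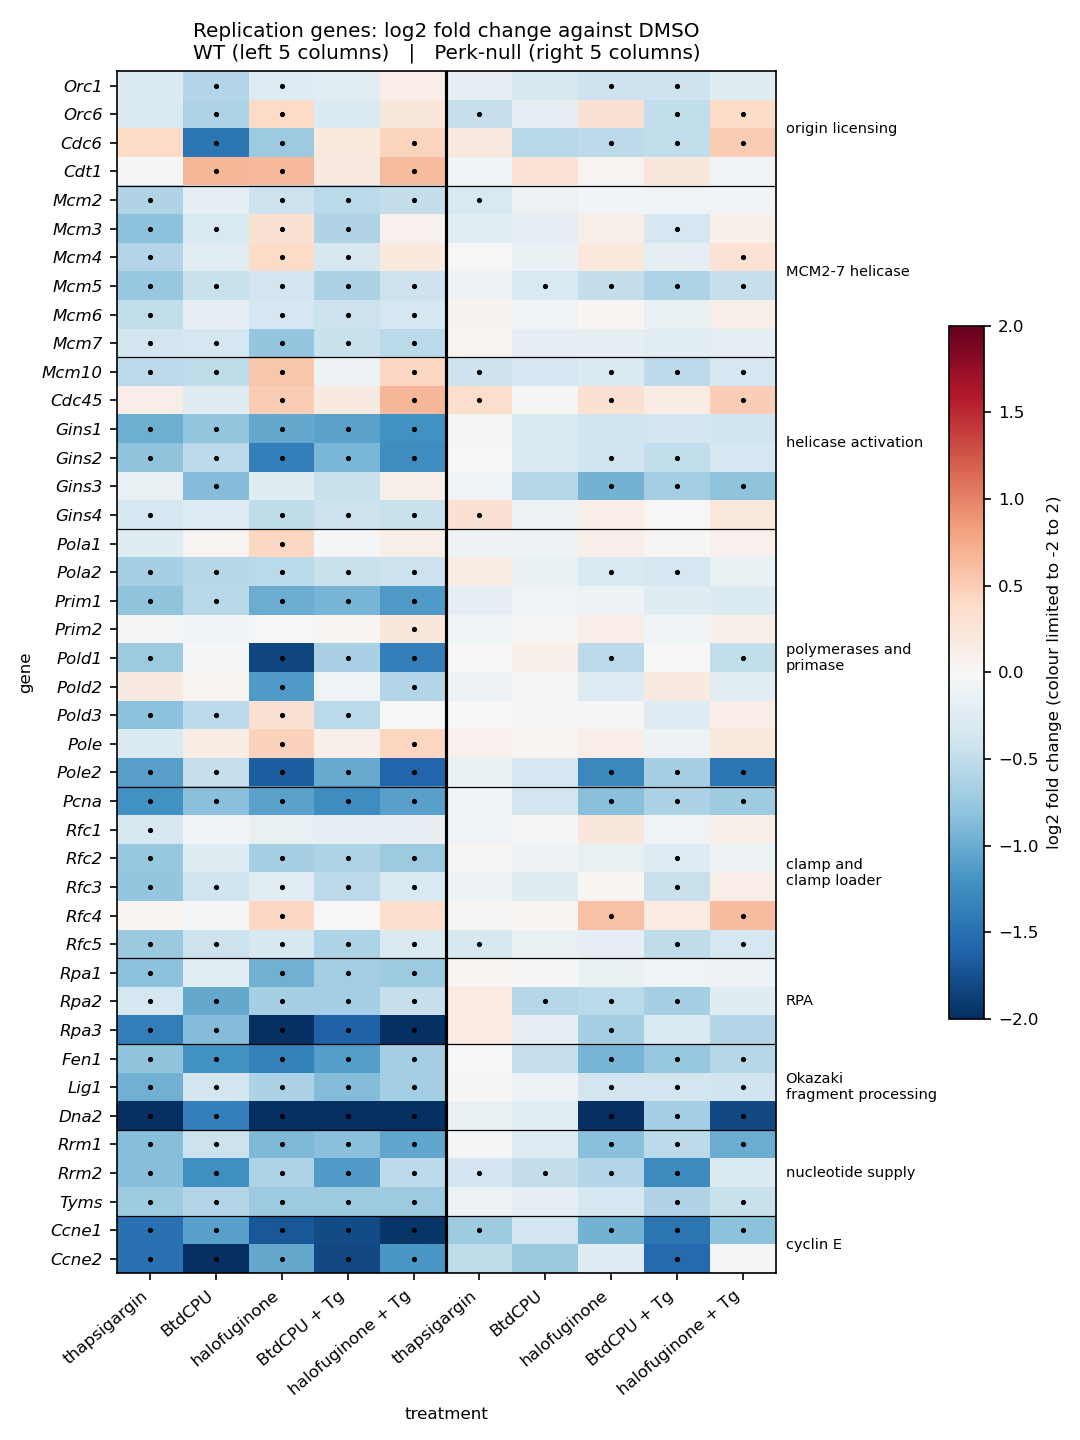
Log2 fold change against DMSO of the same genotype for the 42 genes (rows, by role) in the 5 treatments of WT cells (left) and Perk-null cells (right), with colour limited to -2 to 2 and a dot where the gene was called. In WT cells 20 rows carry a dot and a fall in all 5 columns, in Perk-null cells 0. The same count was not made for all genes.

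Across the 5 WT treatments, 20 of the 42 genes were called lower in every one. They were Mcm5, Mcm7, Gins1, Gins2, Pola2, Prim1, Pole2, Pcna, Rfc3, Rfc5, Rpa2, Rpa3, Fen1, Lig1, Dna2, Rrm1, Rrm2, Tyms, Ccne1 and Ccne2. In fits of the compared groups alone 9 of the 20 were lower in all 5 treatments, and without replicate 3 of WT BtdCPU 13 were. Another 6, Cdt1, Cdc45, Pola1, Prim2, Pole and Rfc4, were called lower in none. In Perk-null cells 0 genes were lower in all 5 treatments and 12 were called in none: Cdt1, Mcm6, Mcm7, Gins1, Pola1, Prim1, Prim2, Pold2, Pold3, Pole, Rfc1 and Rpa1. Such counts over the 5 treatments were not made for all genes. With BtdCPU alone 9.31% of all genes were lower in WT cells and 1.04% in Perk-null cells. These shares limit how many genes can be lower in all 5, so the 20 and the 0 are not directly comparable. The 5 comparisons of a genotype share its 3 DMSO libraries, so these counts only describe the 42 genes.

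The origin licensing genes did not move as one. Orc1, the largest ATPase subunit of ORC, stood at 27.5, 27.7 and 29.3 CPM in WT DMSO and at 18.8, 21.3 and 16.5 CPM in WT BtdCPU libraries, which lay wholly below (log2 fold change -0.58 ± 0.12 (SE), edgeR adjusted p = 0.000614). With halofuginone its levels were 23.1, 25.2 and 22.1 CPM, again below DMSO (log2 fold change -0.26 ± 0.12 (SE), edgeR adjusted p = 0.0487), and with thapsigargin 21.8, 21.0 and 26.8 CPM, below DMSO but not called (log2 fold change -0.28 ± 0.12 (SE), edgeR adjusted p = 0.0524). The halofuginone call was lost with DESeq2 size factors, in DESeq2 and in a fit of the compared groups alone, and the thapsigargin value was called lower with DESeq2 size factors, in DESeq2 and with the replicate block. Perk-null DMSO cells held 39.9, 42.5 and 40.7 CPM, above every WT library of DMSO (log2 fold change 0.54 ± 0.12 (SE), edgeR adjusted p = 0.000288). Cdt1, the loader that geminin inhibits, went the other way: WT DMSO cells held 95, 91.7 and 109.9 CPM and WT halofuginone cells 133, 157 and 173 CPM, with no overlap. Thapsigargin alone left Cdt1 at 96.7, 94.8 and 97.7 CPM, within the DMSO range. In Perk-null cells Cdt1 stood at 161, 157 and 178 CPM in DMSO, a range that overlaps that of halofuginone-treated WT cells, and was called in none of the 5 treatments. Cdc6, the ATPase that works with ORC, differed by compound: in WT cells it fell with BtdCPU and with halofuginone (log2 fold change -0.73 ± 0.18 (SE), edgeR adjusted p = 0.000664) but rose, with overlapping groups, with halofuginone and thapsigargin (log2 fold change 0.44 ± 0.18 (SE), edgeR adjusted p = 0.0292), a call lost with the replicate block and in a fit of the 2 groups alone. Orc6, the smallest ORC subunit, fell with BtdCPU (-0.62) and rose with halofuginone (0.38) in WT cells, both called, the rise not when scaled by library size alone. Orc6 overlaps Vps35, which was more abundant, by 171 bases on the opposite strand.

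The 6 subunits of the MCM2-7 hexamer fell together with thapsigargin in WT cells and parted with halofuginone. Mcm2 stood at 379, 352 and 425 CPM in WT DMSO and 272, 246 and 246 CPM in WT thapsigargin libraries, with no overlap (log2 fold change -0.60 ± 0.07 (SE), edgeR adjusted p = 7.28e-08). Among Perk-null libraries Mcm2 was at 499.9, 545 and 547 CPM in DMSO and 416, 449.7 and 425 CPM with thapsigargin, a smaller fall (log2 fold change -0.30 ± 0.07 (SE), edgeR adjusted p = 0.00222). The difference between these falls was called (0.30 ± 0.10, edgeR adjusted p = 0.025), and lost with any 1 of 5 libraries left out (0.22 to 0.27; Perk-null DMSO 1, Perk-null thapsigargin 2, WT DMSO 3 and WT thapsigargin 2 or 3), without the filter (0.30) and in a fit of these 4 groups alone (0.29). Mcm5 had the lowest mean log2 fold change of the 6 over the 10 comparisons with DMSO, and was at 578, 544 and 629 CPM in WT DMSO, 381, 348 and 308 CPM with thapsigargin and 449.6, 454 and 437 CPM with halofuginone. Both treated groups lay below DMSO (log2 fold change -0.76 ± 0.09 (SE), edgeR adjusted p = 2.03e-08, and log2 fold change -0.39 ± 0.09 (SE), edgeR adjusted p = 0.000268). Mcm4, a catalytic subunit, was at 298, 274 and 389 CPM in WT DMSO and 235, 191 and 218 CPM with thapsigargin, below it (log2 fold change -0.58 ± 0.11 (SE), edgeR adjusted p = 3.97e-05). With halofuginone Mcm4 reached 424, 373 and 450.5 CPM, called higher although the groups overlapped (log2 fold change 0.38 ± 0.11 (SE), edgeR adjusted p = 0.00239). Mcm3 did the same with halofuginone (0.31), while Mcm7 (-0.78), Mcm2 (-0.43) and Mcm6 (-0.34) were called lower. The rise of Mcm3 was lost when scaled by library size alone, without the filter and in a fit of the 2 groups alone. That last fit also lost the fall of Mcm6.

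Because the 6 subunits form one ring, their levels were set side by side per kilobase of merged exons. These lengths join the exons of all annotated transcripts (6956 bases for Mcm2, 4426 for Mcm7, 3993 for Mcm5 and 3589 for Mcm4). The order of the subunits depends on them. In CPM, Mcm2 was at 352 to 425 and Mcm4 at 274 to 389 in WT DMSO. With halofuginone in WT cells Mcm4 was at 373 to 450.5 CPM and Mcm5 at 437 to 454 CPM. In WT DMSO cells the means ran from 55.4 CPM per kilobase for Mcm2 and 61.4 for Mcm7 to 105 for Mcm3, 109 for Mcm6 and 146 for Mcm5. With halofuginone Mcm3 (130.2) and Mcm4 (116) stood above Mcm5 (112), and Mcm7 was at 35.9 CPM per kilobase. With thapsigargin Mcm3 and Mcm4 stood at 59.7 and 59.8 and Mcm2 at 36.6 CPM per kilobase. In Perk-null DMSO cells Mcm2 stood at 76.3 and Mcm6 at 79.8 CPM per kilobase, closer to each other than in WT DMSO cells.

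**Figure D4:**
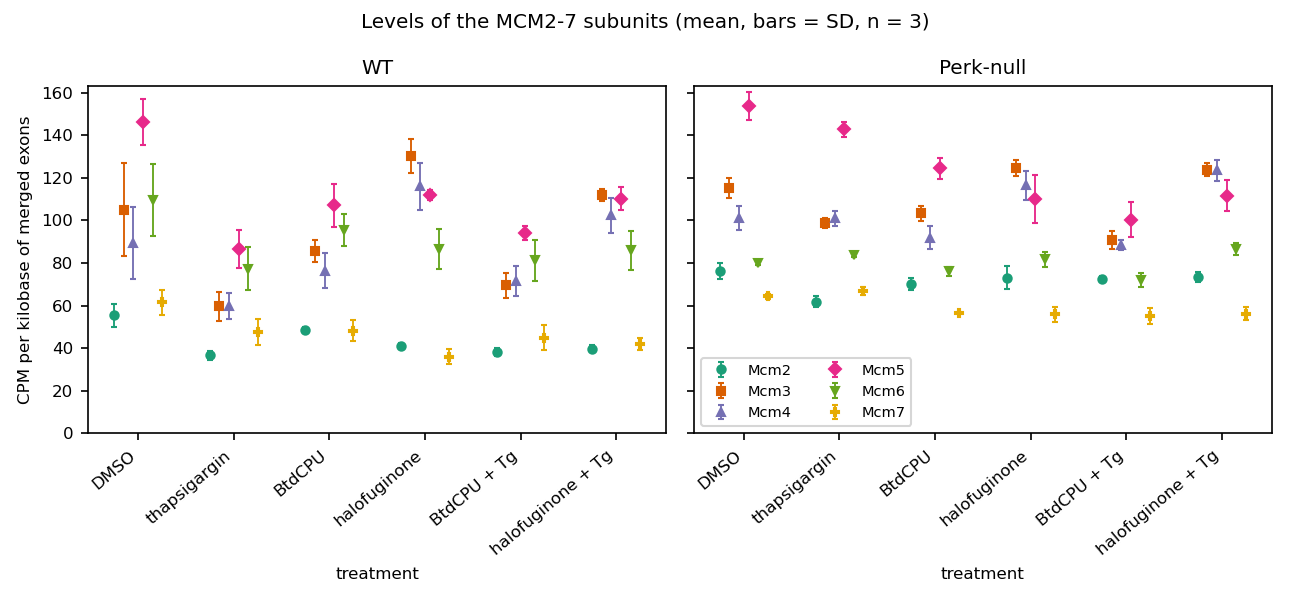
Mean CPM per kilobase of merged exons (y axis, bars SD, n = 3) of Mcm2 to Mcm7 for the 6 treatments (x axis), with WT cells on the left and Perk-null cells on the right. Mcm5 is highest in DMSO in both genotypes, and with halofuginone alone Mcm3 and Mcm4 lie above it in both genotypes. The order of the subunits depends on the exon lengths used.

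Helicase activation held both falling and rising genes. Gins1, a subunit of the GINS tetramer, stood at 31.0, 31.0 and 27.1 CPM in WT DMSO, 17.8, 17.8 and 9.58 CPM with thapsigargin and 15.8, 16.6 and 11.6 CPM with halofuginone, with replicate 3 lowest in each group. Neither treated group overlapped DMSO (log2 fold change -0.98 ± 0.21 (SE), edgeR adjusted p = 0.000288, and log2 fold change -1.02 ± 0.21 (SE), edgeR adjusted p = 9.89e-05). Among Perk-null libraries Gins1 was at 33.0, 29.9 and 23.7 CPM in DMSO and 30.1, 31.4 and 24.1 CPM with thapsigargin, overlapping ranges, and the interaction was called (0.97 ± 0.30, edgeR adjusted p = 0.00993). Gins2 fell further with halofuginone in WT cells (-1.36), but overlaps Gse1 on the opposite strand by 2758 bases, and Gse1 had a similar mean level. Cdc45, which joins MCM2-7 and GINS, was at 101, 85.3 and 95.9 CPM in WT DMSO and 138, 130.5 and 136 CPM with halofuginone, wholly above (log2 fold change 0.51 ± 0.10 (SE), edgeR adjusted p = 3.74e-05). Its level was 110.4, 104 and 96.6 CPM with thapsigargin in WT cells, within reach of DMSO, and 166, 135 and 133 against 118, 113 and 110.3 CPM in Perk-null cells. Mcm10 stood at 64.8, 56.2 and 81.4 CPM in WT DMSO, 49.5, 50.1 and 40.6 CPM with thapsigargin and 91.4, 91.7 and 113 CPM with halofuginone, so it fell with the one and rose with the other. In Perk-null cells Mcm10 was at 108, 99.99 and 109.8 CPM in DMSO and fell with halofuginone to 87.0, 81.7 and 90.3 CPM (log2 fold change -0.30 ± 0.11 (SE), edgeR adjusted p = 0.0261). Gins3, another GINS subunit, was at 7.49, 6.58 and 5.23 CPM in WT DMSO and 3.33, 4.82 and 2.41 CPM with BtdCPU, called lower (log2 fold change -0.87 ± 0.20 (SE), edgeR adjusted p = 0.00188). Gins4 fell with thapsigargin in WT cells (-0.34) and rose in Perk-null cells (0.30), with a called difference of 0.64. The call on its WT fall was lost in a fit of the 2 groups alone.

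Among the polymerases and primase, subunits of the same enzyme did not always move together. Pole2, the B subunit of polymerase epsilon, was at 30.1, 34.0 and 30.8 CPM in WT DMSO, 15.96, 16.1 and 12.8 CPM with thapsigargin and 10.2, 11.2 and 8.79 CPM with halofuginone, 3 separate ranges (log2 fold change -1.08 ± 0.16 (SE), edgeR adjusted p = 1.31e-06, and log2 fold change -1.65 ± 0.16 (SE), edgeR adjusted p = 1.88e-10). Perk-null cells held 23.5, 25.4 and 18.3 CPM in DMSO, 20.9, 20.9 and 18.9 CPM with thapsigargin and 9.06, 10.8 and 7.68 CPM with halofuginone, so that only the last left the DMSO range among these. Pole, the catalytic subunit of the same enzyme, stood at 102, 79.2 and 150.1 CPM in WT DMSO and 142, 132 and 182 CPM with halofuginone, overlapping but called higher (log2 fold change 0.46 ± 0.17 (SE), edgeR adjusted p = 0.0173). In WT cells thapsigargin left Pole at 82.6, 87.0 and 102 CPM (log2 fold change -0.29 ± 0.17 (SE), edgeR adjusted p = 0.17). Pold1, the catalytic subunit of polymerase delta, was at 146, 142 and 158 CPM in WT DMSO and 48.5, 48.4 and 29.4 CPM with halofuginone, without overlap (log2 fold change -1.82 ± 0.15 (SE), edgeR adjusted p = 3.74e-12). Its response to halofuginone was smaller in Perk-null cells (-0.52) by a called 1.30 ± 0.21 (edgeR adjusted p = 1.4e-05). Pold2, its B subunit, fell with halofuginone in WT cells (log2 fold change -1.14 ± 0.15 (SE), edgeR adjusted p = 7.89e-08) and was not called with thapsigargin (0.19), whereas Pold3 fell with thapsigargin (-0.82) and rose with halofuginone (0.30). Prim1, the catalytic primase subunit, fell in all 5 WT treatments (-0.55 to -1.14), and Prim2, its partner, was called once, higher with halofuginone and thapsigargin (log2 fold change 0.22 ± 0.08 (SE), edgeR adjusted p = 0.0121). Pola1, the catalytic subunit of polymerase alpha, was called once, higher with halofuginone (log2 fold change 0.41 ± 0.13 (SE), edgeR adjusted p = 0.00475), while Pola2 fell in all 5 (-0.66 to -0.44). The halofuginone rises of Pole, Pola1 and Pold3 in WT cells were not called when scaled by library size alone. That of Pole was also lost in a fit of the 2 groups alone, and that of Pold3 without the filter. The call on Prim2 was lost without the filter and in a fit of the 2 groups alone.

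Pcna, the sliding clamp, stood at 136, 153 and 134 CPM in WT DMSO and at 71.1, 69.0 and 42.1 CPM in WT thapsigargin libraries, 2.32-fold lower and without overlap (log2 fold change -1.21 ± 0.19 (SE), edgeR adjusted p = 4.58e-06). With halofuginone it was at 76.5, 76.1 and 49.5 CPM (log2 fold change -1.06 ± 0.19 (SE), edgeR adjusted p = 1.31e-05) and with BtdCPU at 80.0, 95.05 and 62.6 CPM (log2 fold change -0.83 ± 0.19 (SE), edgeR adjusted p = 0.00185), both below all DMSO libraries. In Perk-null cells Pcna was at 141, 166 and 123 CPM in DMSO and 136, 154 and 123 CPM with thapsigargin, ranges that overlap, and the interaction was called (1.16 ± 0.27, edgeR adjusted p = 0.000913). Halofuginone did lower Pcna in Perk-null cells, to 87.1, 82.3 and 71.8 CPM (log2 fold change -0.83 ± 0.19 (SE), edgeR adjusted p = 0.000658). Of the 5 subunits of the clamp loader, Rfc1 to Rfc3 and Rfc5 fell with thapsigargin in WT cells (-0.78 to -0.32). The call on Rfc1 was lost in a fit of the 2 groups alone. Rfc4 stood at 67.2, 70.1 and 47.2 CPM in WT DMSO and 69.2, 72.6 and 50.1 CPM with thapsigargin, with replicate 3 lowest in both. With halofuginone Rfc4 was at 87.1, 91.8 and 66.3 CPM in WT cells, overlapping DMSO (log2 fold change 0.41 ± 0.18 (SE), edgeR adjusted p = 0.0404), and at 134, 126 and 124 against 83.7, 97.7 and 74.4 CPM in Perk-null cells, with no overlap. The WT rise of Rfc4 was not called when scaled by library size alone or in a fit of the 2 groups alone. Rfc4 overlaps Eif4a2 on the opposite strand by 194 bases, and that gene was more abundant.

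All 3 RPA genes fell in 4 of the 5 WT treatments, and in those 4 the smallest subunit, Rpa3, had the lowest log2 fold change of the 3. With BtdCPU alone Rpa2 (-1.02) and Rpa3 (-0.87) fell, and Rpa1, at -0.21, was not called. The thapsigargin call on Rpa2 was lost in a fit of the 2 groups alone and without replicate 2 or 3 of WT thapsigargin. The BtdCPU call on Rpa3 was lost in a fit of the 2 groups alone and without replicate 1 or 3 of WT BtdCPU. Rpa3 stood at 35.4, 45.3 and 29.1 CPM in WT DMSO, 14.6, 17.4 and 10.3 CPM with thapsigargin and 9.51, 9.09 and 6.26 CPM with halofuginone. The 3 ranges were apart, at 2.60-fold and 4.42-fold below DMSO (log2 fold change -1.38 ± 0.26 (SE), edgeR adjusted p = 4.36e-05, and log2 fold change -2.14 ± 0.27 (SE), edgeR adjusted p = 2.04e-08). Perk-null cells held 65.4, 82.9 and 55.2 CPM in DMSO and 70.6, 85.6 and 70.7 CPM with thapsigargin, all above every WT library of any treatment. Rpa1, the large DNA-binding subunit, was at 305, 267 and 364 CPM in WT DMSO and 188, 173 and 169 CPM with thapsigargin, without overlap (log2 fold change -0.82 ± 0.08 (SE), edgeR adjusted p = 2.02e-09). Among Perk-null libraries Rpa1 stood at 364, 366 and 389.6 CPM in DMSO and 393, 378 and 389 CPM with thapsigargin and was called in none of the 5 treatments. Rpa2 was lowest with BtdCPU, at 18.4, 34.8 and 22.1 CPM against 46.4, 47.0 and 59.5 CPM in WT DMSO, where replicate 2 lay nearest to DMSO (log2 fold change -1.02 ± 0.14 (SE), edgeR adjusted p = 3.23e-06). Among Perk-null libraries BtdCPU took Rpa2 from 71.2, 76.3 and 66.9 CPM to 44.0, 51.4 and 48.4 CPM, also without overlap.

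Dna2, the nuclease and helicase that trims long flaps of Okazaki fragments, had the largest fall of the 42 genes with thapsigargin in WT cells. It stood at 28.0, 20.2 and 31.8 CPM in WT DMSO and at 3.74, 3.59 and 3.497 CPM in WT thapsigargin libraries, 7.38-fold lower, and the treated libraries lay close together. In Perk-null cells it was at 29.8, 28.9 and 32.1 CPM in DMSO and 26.99, 28.4 and 27.2 CPM with thapsigargin, slightly lower but not called (log2 fold change -0.13 ± 0.24 (SE), edgeR adjusted p = 0.744). With BtdCPU, WT cells held 8.24, 15.9 and 6.89 CPM, with replicate 2 the highest (log2 fold change -1.36 ± 0.25 (SE), edgeR adjusted p = 0.000173), and Perk-null cells 25.2, 27.4 and 25.2 CPM (log2 fold change -0.22 ± 0.24 (SE), edgeR adjusted p = 0.759). With halofuginone, Perk-null cells held 8.50, 8.24 and 5.84 CPM, below every other Perk-null library without halofuginone and above the WT libraries with it. Lig1, the ligase that seals the fragments, was at 183, 148 and 220.5 CPM in WT DMSO and 108, 85.1 and 92.0 CPM with thapsigargin (log2 fold change -0.95 ± 0.11 (SE), edgeR adjusted p = 1.08e-08). Perk-null cells held 232, 223 and 257 CPM of Lig1 in DMSO and 236, 234 and 253 CPM with thapsigargin, and the interaction was called (0.98 ± 0.15, edgeR adjusted p = 4.77e-06). Fen1, the main flap nuclease, fell in all 5 WT treatments (-1.36 with halofuginone to -0.68 with halofuginone and thapsigargin), and it overlaps Tmem258 on the opposite strand by 156 bases.

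The genes of nucleotide supply fell in each of the 5 WT treatments. With BtdCPU the calls on Rrm1 and Tyms were lost in a fit of the 2 groups alone. That on Tyms was also lost without replicate 1 or 3 of WT BtdCPU. Rrm2, the small subunit of ribonucleotide reductase whose protein limits the enzyme to S phase, stood at 198, 157 and 248 CPM in WT DMSO and 71.6, 112 and 75.9 CPM with BtdCPU, with replicate 2 the highest of the latter (log2 fold change -1.22 ± 0.13 (SE), edgeR adjusted p = 5.09e-08). With thapsigargin it was at 118, 104 and 112 CPM in WT cells (log2 fold change -0.85 ± 0.13 (SE), edgeR adjusted p = 3.67e-06). Among Perk-null libraries Rrm2 fell from 195, 187 and 195 CPM in DMSO to 149, 141 and 152 CPM with thapsigargin (log2 fold change -0.39 ± 0.13 (SE), edgeR adjusted p = 0.0279) and to 79.0, 80.8 and 77.6 CPM with BtdCPU and thapsigargin (log2 fold change -1.28 ± 0.13 (SE), edgeR adjusted p = 7.04e-09), 3 separate ranges. Tyms, thymidylate synthase, was at 169.5, 162 and 139 CPM in WT DMSO and 106, 108 and 74.3 CPM with thapsigargin, with replicate 3 lowest in both (log2 fold change -0.71 ± 0.16 (SE), edgeR adjusted p = 0.000529). Perk-null cells held 174, 198 and 170.5 CPM of Tyms in DMSO and 169, 174 and 155 CPM with thapsigargin, which overlap. Rrm1, the large subunit, had log2 fold changes from -1.04 to -0.43 over the WT treatments.

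The cyclin E genes, which activate CDK2 at the G1 to S transition, fell in all 5 WT treatments. Ccne1 stood at 68.0, 54.8 and 95.2 CPM in WT DMSO, 33.3, 20.8 and 23.3 CPM with thapsigargin and 24.1, 19.8 and 23.6 CPM with halofuginone. All treated values lay below the lowest DMSO library (log2 fold change -1.50 ± 0.19 (SE), edgeR adjusted p = 9.53e-08, and log2 fold change -1.69 ± 0.19 (SE), edgeR adjusted p = 3.2e-09). Among Perk-null libraries Ccne1 also fell, from 82.5, 81.3 and 88.3 CPM in DMSO to 53.2, 46.4 and 54.3 CPM with thapsigargin and 28.0, 32.2 and 31.8 CPM with BtdCPU and thapsigargin. The thapsigargin response of Ccne1 differed by 0.78 ± 0.26 (edgeR adjusted p = 0.0173), lost without WT DMSO replicate 3 (0.54) or WT thapsigargin replicate 2 (0.65). Ccne2 stood at 54.5, 53.7 and 50.8 CPM in WT DMSO and 20.5, 19.3 and 17.0 CPM with thapsigargin, well apart (log2 fold change -1.49 ± 0.31 (SE), edgeR adjusted p = 0.000201). The Perk-null level was 75.1, 80.2 and 57.6 CPM in DMSO and 48.5, 61.8 and 39.7 CPM with thapsigargin, which overlap (log2 fold change -0.51 ± 0.30 (SE), edgeR adjusted p = 0.226), and the difference between the genotypes was not called (0.98 ± 0.43, edgeR adjusted p = 0.071). It was called, at 0.97 to 0.99, without the filter, with the replicate block and in a fit of these 4 groups alone. Halofuginone left Ccne2 at 66.4, 53.4 and 57.3 CPM in Perk-null cells and 30.8, 28.3 and 19.5 CPM in WT cells. Ccne2 overlaps Ints8 by 5622 bases on the opposite strand, and the use of strand in counting is not given in the sources used here. Mcm7 (with Ap4m1 by 421 and Cops6 by 64 bases), Rfc2 (with Lat2 by 1784 bases) and Rfc5 (with Wsb2 by 499 bases) also overlap a gene on the other strand, so the values of all members with such an overlap are uncertain.

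**Figure D5:**
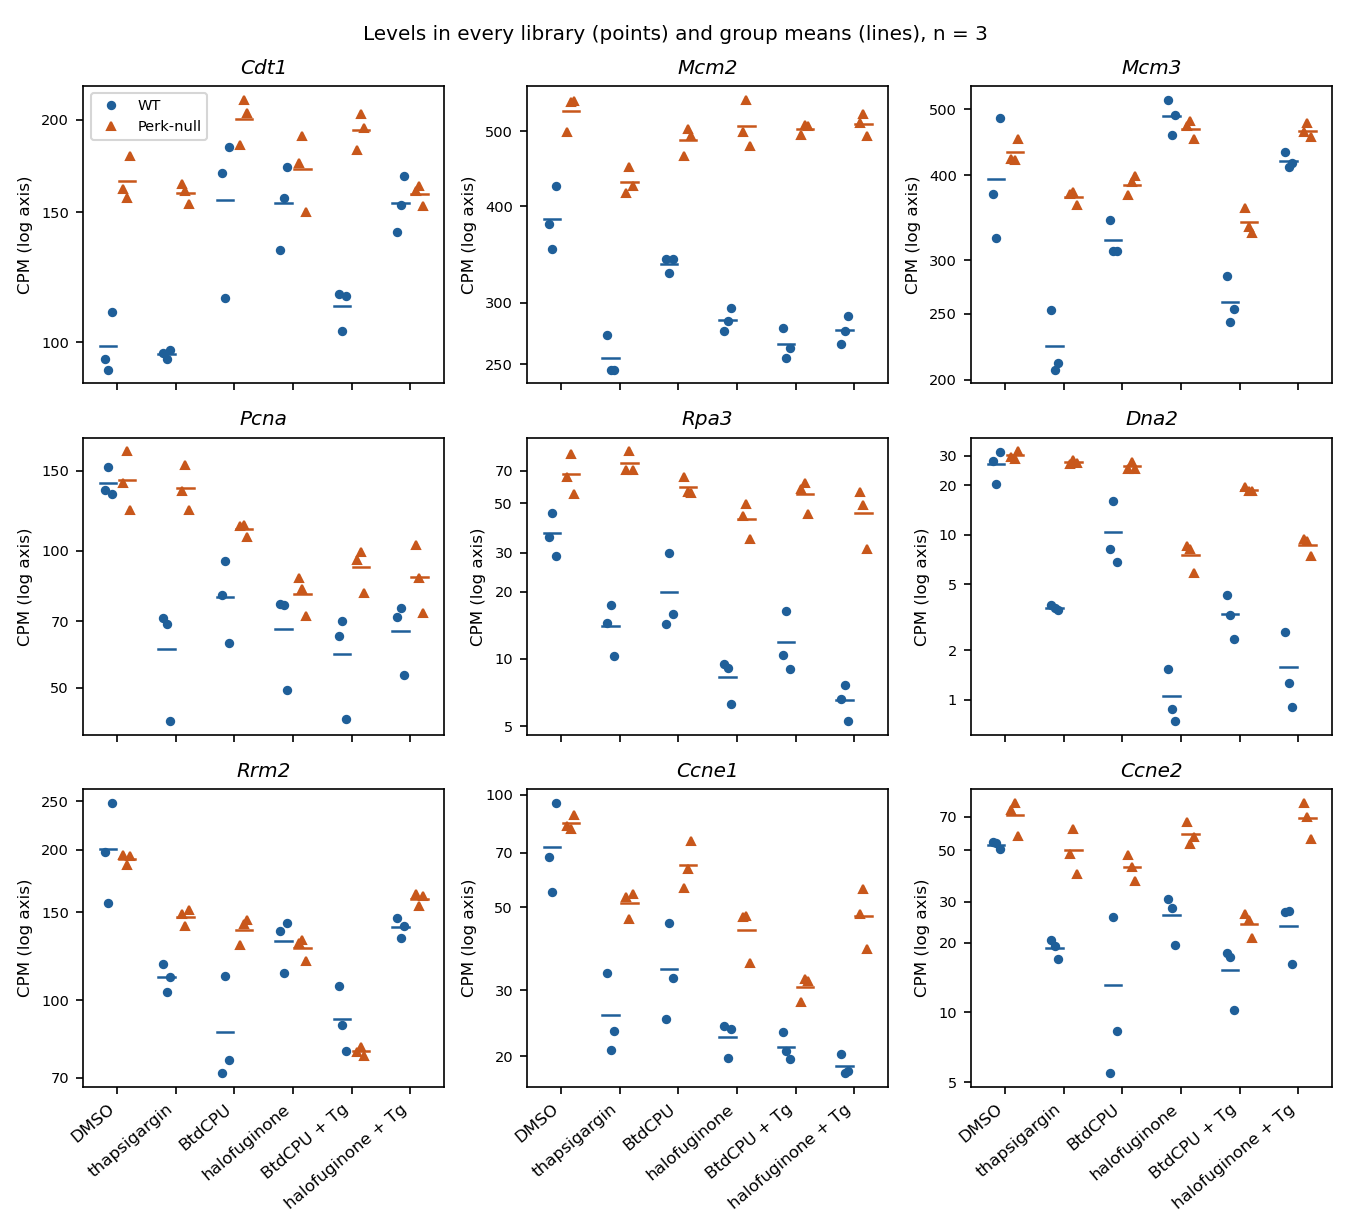
CPM in every library (log y axis, points) and group means (lines, n = 3) of 9 replication genes for the 6 treatments (x axis), with WT cells as circles and Perk-null cells as triangles. Dna2 ranges from 0.74 CPM with halofuginone in WT cells to 32.1 CPM in Perk-null DMSO cells, and Cdt1 is higher in Perk-null than in WT DMSO cells.

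Regulators upstream of these genes were examined in the same fits. E2f1, an activator of S phase genes, had a mean of 73.8 ± 13.2 CPM (SD) in vehicle-treated WT cells and fell with thapsigargin (log2 fold change -0.81 ± 0.10 (SE), edgeR adjusted p = 8.65e-08), while its value in Perk-null cells was not called (log2 fold change -0.15 ± 0.10 (SE), edgeR adjusted p = 0.274). E2f8, a repressor that is itself made in S phase, fell from 50.1 ± 15.0 to 10.9 ± 0.691 CPM in WT cells (log2 fold change -2.19 ± 0.17 (SE), edgeR adjusted p = 4.66e-12), and its response differed between the genotypes (1.81 ± 0.23, edgeR adjusted p = 2.14e-07). Ccnd1, the D cyclin that opens the G1 to S transition, fell with thapsigargin in both genotypes, to 139 ± 22.8 CPM in WT and 45.8 ± 8.19 CPM in Perk-null cells (-1.24 and -2.44, both called). Cdc25a, the phosphatase that activates CDK2, likewise fell in both (-0.52 and -0.77, both called). Myc rose with thapsigargin in WT cells (log2 fold change 1.72 ± 0.19 (SE), edgeR adjusted p = 8.06e-09) and fell in Perk-null cells (log2 fold change -1.29 ± 0.19 (SE), edgeR adjusted p = 3.5e-06). The CDK inhibitor Cdkn1a (p21) stood at 54.6 ± 2.16 CPM in WT and 4.49 ± 0.952 CPM in Perk-null DMSO cells, 12.2-fold lower in the latter (log2 fold change -3.60 ± 0.16 (SE), edgeR adjusted p = 1.61e-18). Halofuginone raised Cdkn1a in both genotypes (1.41 and 2.30). Cdkn2a, which encodes p16 and p19ARF, went the other way, at 457 CPM in Perk-null and 9.27 CPM in WT DMSO libraries (log2 fold change 5.62 ± 0.14 (SE), edgeR adjusted p = 1.65e-24). Rrm2b, the reductase subunit used outside S phase, rose with thapsigargin in WT cells (log2 fold change 0.85 ± 0.21 (SE), edgeR adjusted p = 0.000982) while Rrm2 fell. The part of these regulators in the levels of the replication genes was not tested.

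Other genes of the same pathways moved as follows. Of 38 other replication genes, 20 were lower and 6 higher with thapsigargin in WT cells (median -0.35), against 4 and 1 in Perk-null cells. Over all genes tested 22.7% were lower and 24.9% higher in WT cells, and 12.7% and 15.2% in Perk-null cells, so the Perk-null share of this list that was lower lay below that of all genes. Named falls in WT cells were those of Rnaseh2c (-1.61), a subunit of RNase H2, Chaf1b (-1.33), a histone chaperone, and Clspn (-1.31), the checkpoint mediator claspin. Of 16 genes of nucleotide metabolism, 9 were lower and 1 higher in WT cells, with Tk1, thymidine kinase, at -2.16. Of 27 genes of the replication checkpoint and fork repair, 15 were lower and 2 higher, with Rad54l at -1.50. The 23 genes of the RB-E2F network and G1/S kinases held 15 lower and 2 higher, the 22 mitosis genes 14 lower and 1 higher, and the 7 CDK inhibitors 1 and 1. In Perk-null cells with thapsigargin 5 genes of nucleotide metabolism were lower and 0 higher, 6 and 3 of the checkpoint, 10 and 4 of the RB-E2F network, and 0 and 5 of the CDK inhibitors. There 0 mitosis genes were lower and 3 higher. With halofuginone 14 mitosis genes were lower in Perk-null and 16 in WT cells, where 21.0% and 33.4% of all genes were lower. With halofuginone in WT cells, Chtf18 (-2.44), part of an alternative clamp loader, Dctpp1 (-2.33), a dCTP pyrophosphatase, Ung (-2.93), the uracil glycosylase, and Kif20a (-2.31), a mitotic kinesin, fell as called.

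The members' own levels varied in how closely they followed the group mean. Pearson's r with the mean z-score of the 42 genes over the 36 libraries ran from -0.41 for Prim2 and -0.30 for Pola1 to 0.92 for Rfc3. Genes with a high r among all others tested were Uhrf1 (0.94), Nasp (0.94), Hat1 (0.92), Zcchc17 (0.92), Tcf19 (0.92), Lsm6 (0.91), Mrpl18 (0.91), Ppil1 (0.91) and Mrpl49 (0.90). These are descriptions over libraries that share 12 groups, with no p.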

How the data were processed

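RNA of 36 libraries (12 groups of 3) was measured with strand-specific, ribosome-depleted and mRNA-selected sequencing on DNBSEQ, per the labels' protocols. The authors deposited estimated counts per gene for all libraries in 1 table. The submitters' processing notes name GRCm39 and DESeq without a role, and the aligner, counter and use of strand are not given in the sources used here. In the deposited counts, 0.025 stood in place of 0 (50.6% of values) and was set to 0, and 2.69% of the other values were not whole (tolerance 1e-06) and were rounded. Among 36930 entries, 27 date-like names (0.206 to 0.278% of counts) were left out, 39 duplicated symbols were summed, and no gene described here was affected. The column names were matched to samples by genotype sign, treatment letter and replicate.

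Genes were tested with edgeR 4.0.16 (R 4.3.3) by quasi-likelihood on 12 group means over all 36 libraries, with TMM scaling, filterByExpr (16065 genes) and Benjamini-Hochberg adjustment over all of them, and called below 0.05. The fit was tested on simulated data. Alternatives were DESeq2 1.42.0, other scalings, no filter, a replicate block, the compared groups alone and each library left out. Replicate numbers, given in the titles, paired libraries in 2 comparisons, BtdCPU with thapsigargin and halofuginone with thapsigargin against thapsigargin in WT cells, where correlations of same-numbered libraries ran from 0.159 to 0.337 and 0.162 to 0.308. In each other comparison at least 1 pair was below 0.1, although other pairs reached up to 0.287 (WT BtdCPU against DMSO). The genes and lists were chosen with earlier results of these data known. Named were the 2 largest called changes in each direction per comparison, the extreme genes of each role, Pcna, Mcm2, Ccne1 and Ccne2, and of other lists at most 3 called genes and 7 regulators, with a few further genes named after their values were seen. Promoters came from RefSeq (GRCm38.p6) and exon lengths and overlaps from the annotation of that build. Some items among the markers and the genes most like the 42 are not reported here.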

Additional observations from a re-analysis of the deposited data

Results flagged for a closer look

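The response to thapsigargin differed between the genotypes for 28 of the 42 genes by the test of the interaction (Perk-null minus WT, log2). Among them were Dna2 (2.75) and Rpa3 (1.53). The response to halofuginone differed for 17 genes, with Rpa3 at 1.47, Mcm10 at -0.85 and Gins3 at -0.71. The call on Gins3 was lost when most single libraries were left out, with library size as the scaling and without the filter. Dna2, one of the 17, was at 2.65, a description with no test, since its level in halofuginone-treated WT cells was known when the genes were chosen. What BtdCPU added to thapsigargin differed for 11 genes, with Pola2 at -0.70 and Mcm5 at -0.63. What halofuginone added to thapsigargin differed for 17 genes, with Pold2 at 0.67, Gins3 at -1.01 and Mcm10 at -0.88.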

How the results depend on the processing

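No called gene of the 42 changed sign in the contrast where it was called, under the 6 alternatives that keep all libraries or with any 1 library of the contrast left out. Counts below are of these genes called. With library size alone as the scaling, halofuginone raised 4 in WT cells (median of the 42 genes -0.70), BtdCPU added to thapsigargin raised 2 in WT cells, and thapsigargin raised 1 in Perk-null cells. DESeq2 size factors in edgeR gave 1 rise for the last and 1 positive interaction for BtdCPU added to thapsigargin. Without the filter, thapsigargin raised 1 in WT and 1 in Perk-null cells (median -0.08), BtdCPU lowered 5 in Perk-null cells, BtdCPU added to thapsigargin raised 2 there, and the interactions were positive for 7 (BtdCPU) and 1 (BtdCPU added to thapsigargin). DESeq2 called 7 lower with BtdCPU in Perk-null cells, with 5 and 1 positive interactions for the same 2 contrasts. Calls over all genes, in either direction, rose as well. For the BtdCPU interaction they went from 32 to 314 without the filter and to 161 in DESeq2. For BtdCPU in Perk-null cells they went from 577 to 800 and 881.

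With the replicate block, BtdCPU with thapsigargin raised 1 in WT cells against DMSO and 4 against thapsigargin, BtdCPU lowered 11 and halofuginone raised 5 in Perk-null cells, and BtdCPU added to thapsigargin raised 3 there. The block gave 5 lower in Perk-null DMSO cells, 11 positive for BtdCPU, 5 negative for halofuginone, 17 negative and 1 positive for BtdCPU added to thapsigargin, and 3 positive for halofuginone added to thapsigargin. Calls over all genes, in either direction, rose with the block too. They went from 32 to 587 for the BtdCPU interaction and from 577 to 1577 for BtdCPU in Perk-null cells. For BtdCPU added to thapsigargin in WT cells they went from 372 to 2079. Outside the 2 paired comparisons at least 1 pair of same-numbered libraries correlated below 0.1, while other pairs reached up to 0.287 (WT BtdCPU against DMSO). In fits of the compared groups alone, WT BtdCPU gave 13 lower and 0 higher, WT halofuginone with thapsigargin 3 higher, and WT BtdCPU added to thapsigargin 0. In Perk-null cells those fits gave a median of -0.09 with thapsigargin, 11 lower with BtdCPU, 1 higher with BtdCPU and thapsigargin, 3 higher when BtdCPU and 11 when halofuginone was added to thapsigargin, and 1 positive interaction for BtdCPU added to thapsigargin. Over all genes, calls with BtdCPU went from 3571 to 835 in WT and from 577 to 1265 in Perk-null cells in those fits. The cause was not tested.

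With 1 library left out, the lowest and highest counts were as follows. In WT cells they were 28 to 32 lower and 0 to 1 higher with thapsigargin, 19 to 27 lower and 1 higher with BtdCPU, 26 to 30 lower and 5 to 9 higher with halofuginone, 29 to 31 lower and 0 to 1 higher with BtdCPU and thapsigargin, and 25 to 28 lower and 4 to 8 higher with halofuginone and thapsigargin. Against thapsigargin they were 0 to 1 higher with BtdCPU, and 5 to 9 lower and 12 to 15 higher with halofuginone. In Perk-null cells they were 4 to 6 lower and 0 to 1 higher with thapsigargin, 0 to 1 lower with BtdCPU, 14 to 18 lower and 1 to 3 higher with halofuginone, 15 to 22 lower with BtdCPU and thapsigargin, and 12 to 15 lower and 2 to 4 higher with halofuginone and thapsigargin. Against thapsigargin they were 8 to 16 lower and 0 to 2 higher with BtdCPU, and 7 to 12 lower and 6 to 7 higher with halofuginone. Between the genotypes in DMSO they were 2 to 4 lower and 11 to 19 higher. The interactions ran from 23 to 28 positive for thapsigargin, 0 to 9 positive and 0 to 1 negative for BtdCPU, 11 to 16 positive and 2 to 4 negative for halofuginone, 3 to 11 negative and 0 to 1 positive for BtdCPU added to thapsigargin, and 12 to 16 negative and 0 to 1 positive for halofuginone added to thapsigargin. Depth limits the lowest levels most, such as Dna2 with halofuginone in WT cells.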
